A study of Mus musculus with 5 samples.

Results

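Immediate early genes are genes whose transcripts can accumulate soon after a stimulus without new protein being made first. Here 10 of them were described in the oligodendrocyte (OL) lineage of the adult mouse corpus callosum, namely Fos, Fosb, Junb, Jun, Egr1, Egr2, Nr4a1, Arc, Dusp1 and Ier2. They were chosen by name, and all 10 were among the 11733 genes measured. Cells came from Emx1::Cre-Sox10::GFP-TdTom mice at postnatal day 60, in which the Sox10 promoter limits both reporters to the OL lineage and Emx1-driven Cre switches a cell from GFP to TdTom, so that TdTom marks dorsally derived and GFP ventrally derived cells. Tissue of 2 mice was pooled and sorted into 1 TdTom+ and 1 GFP+ library, without further treatment, so there was no replicate and no test was made. The 3 spinal cord samples of the series were not analysed here.

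Fos, Fosb, Jun and Junb encode subunits of AP-1, a dimeric transcription factor. Egr1 and Egr2 encode zinc finger transcription factors, Nr4a1 an orphan nuclear receptor, and Ier2 a nuclear protein. Dusp1 encodes a phosphatase that inactivates MAP kinases, and Arc a cytoskeleton-associated protein best known from synapses. In the OL lineage, precursor cells (OPC) pass through committed precursors and newly formed cells (COP/NFOL) and myelin-forming cells (MFOL) to mature oligodendrocytes (MOL). The study used Egr2 as its marker of the mature population MOL1 and names Egr1, Fos and Fosb among the genes of that population. In cultures it also used Dusp1 for MOL1. It held that most Dusp1+ cells there were not mature cells and were most likely OPC, among others. The labels came from clustering of these cells, which could use the genes described here, so that values of MOL1 against other labels are a description and not independent evidence.

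Transcription of many of these genes can be driven through the cAMP response element (CRE, full palindrome TGACGTCA, core TGACGT) and the CArG box bound by serum response factor. Windows from 250 to 51 bases before the annotated start were read on both strands for 7 of the 10 genes, from RefSeq on GRCm38.p6. Egr1, Arc and Ier2 were not read. Sites outside the windows were not counted, so a gene without a match here can have one elsewhere. Fos, Egr2 and Dusp1 held a CRE core, and they are shown because they are the 3 members with a match. Of all 27025 genes, which have 32851 windows, 4.72% hold a core in at least 1 window. Of the 7 genes, only Dusp1 held the full palindrome in these windows (0.955% of all genes), within which 2 overlapping cores were counted. Only Egr2 of the 7 held a CArG box in them (1.27% of all genes). The AP-1 site TGANTCA was in no window of these 7 genes and in a window of 6.51% of all genes. Capitals mark CRE cores and the CArG box, and in Egr2 the CArG box comes first and the core is read on the other strand. Egr2 has 5 annotated starts, and the window shown lies before the start at the third of them. A match in this window is a description only, and its use in these cells was not tested.
Fos (GRCm38.p6, chr12:85473640-85473839, + strand): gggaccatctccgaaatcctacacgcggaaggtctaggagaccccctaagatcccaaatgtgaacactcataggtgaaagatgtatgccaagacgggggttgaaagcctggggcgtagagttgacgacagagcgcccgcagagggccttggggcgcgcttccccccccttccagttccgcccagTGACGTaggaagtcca
Egr2 (GRCm38.p6, chr10:67537619-67537818, + strand): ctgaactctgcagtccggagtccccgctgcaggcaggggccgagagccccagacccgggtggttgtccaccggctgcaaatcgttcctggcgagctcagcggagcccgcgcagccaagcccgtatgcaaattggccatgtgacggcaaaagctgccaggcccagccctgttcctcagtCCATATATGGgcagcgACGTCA
Dusp1 (GRCm38.p6, chr17:26508523-26508722, − strand): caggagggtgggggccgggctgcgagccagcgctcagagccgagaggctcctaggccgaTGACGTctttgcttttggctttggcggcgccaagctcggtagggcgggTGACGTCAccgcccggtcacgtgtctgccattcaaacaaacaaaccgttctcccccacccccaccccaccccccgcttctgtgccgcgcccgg

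The TdTom+ library held 7129294 UMIs in 1901 cells and the GFP+ library 3584940 UMIs in 952 cells, with medians of 3340 and 3307 UMIs per cell. A UMI marks 1 captured transcript molecule. UMIs of the cells of a label were summed and scaled to 1000000 UMIs (CPM), separately in each library. Intervals are exact at 95% and cover counting error only. For a count of 0 the limit given is the CPM that 3 UMIs would make, which is lower than the upper end of the exact interval. The labels held between 19 cells (COP/NFOL) and 451 cells (MOL6a), with 161 in MOL1 and 83 in OPC. Summed over 5 myelin genes (Mbp, Mog, Mag, Mobp and Cnp), the level was 21891 CPM in MOL1, 21448 CPM in labels other than MOL1 and OPC, and 1397 CPM in OPC. The 6 OPC markers, Pdgfra among them, summed to 10750 CPM in OPC and 32.9 CPM in MOL1. No UMI of 7 microglial or 4 endothelial markers was found in MOL1 or OPC. Astrocyte markers summed to 136 CPM in MOL1, 919 CPM in OPC and 192 CPM in the rest, and neuronal markers to 73.3 CPM, 1032 CPM and 59.2 CPM, of which Meg3 made up 912 CPM in OPC, and their part in the results was not tested. A total of 1 barcode occurred in both libraries.

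The AP-1 genes were highest in MOL1 in both libraries, with OPC next. Fos reached 2029 CPM (interval 1901 to 2162) in the TdTom+ MOL1 cells and 2337 CPM (2131 to 2558) in the GFP+ MOL1 cells. In OPC it was 1000 CPM (848 to 1170) and 652 CPM (510 to 821). In the other mature labels together it was 133 CPM and 134 CPM. The intervals of these 3 sets of cells did not overlap in either library. Jun was at 2906 CPM (2753 to 3064) and 2753 CPM (2529 to 2991) in MOL1 of the TdTom+ and GFP+ libraries, and at 2006 CPM and 1576 CPM in OPC. Jun was also the member found most widely, in 55.9% of all cells, and its lowest label, MOL2/4, still held 232 CPM.

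Fosb was at 429 CPM (371 to 493) and 425 CPM (340 to 525) in MOL1 of the TdTom+ and GFP+ libraries. It was at 239 CPM and 226 CPM in OPC, and at 16.4 CPM and 16.0 CPM in the other mature labels. The intervals of the 2 libraries overlapped in MOL1 and in OPC, and MOL1 held 286 of the 561 Fosb UMIs with 5.64% of the cells. Junb was at 693 CPM (619 to 772) and 677 CPM (568 to 800) in MOL1. In OPC it was at 542 CPM (432 to 671) and 389 CPM (282 to 525), and here the intervals of MOL1 and OPC overlapped in the TdTom+ library but not in the GFP+ library.

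The zinc finger genes differed in how they ranked. Egr1 was at 620 CPM (550 to 695) in MOL1 and 355 CPM (267 to 462) in OPC of the TdTom+ library. In the GFP+ library the order was the opposite, at 499 CPM (407 to 606) in MOL1 and 525 CPM (399 to 679) in OPC, with overlapping intervals. Egr2 was the rarest member, with 60 UMIs in all, found in 49 cells. Of these UMIs 34 lay in MOL1, 28 in the TdTom+ and 6 in the GFP+ library, for 60.04 CPM (39.9 to 86.8) and 29.7 CPM (10.9 to 64.5). OPC held 5 Egr2 UMIs and MFOL1 held 8, while COP/NFOL, MFOL2, MOL2a, MOL2/4 and MOL4-5/6 held 0 UMIs. This limit was 2.79 CPM in MOL4-5/6 but 21.6 CPM in COP/NFOL, which has 19 cells. Egr2 was detected in 18.0% of MOL1 cells and 0.743% of other cells, so most cells of the label had no Egr2 UMI at this depth.

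Nr4a1 was the member with its highest level outside MOL1. It was at 70.9 CPM (35.4 to 127) and 118 CPM (62.7 to 201) in OPC of the TdTom+ and GFP+ libraries, against 53.6 CPM (34.7 to 79.1) and 44.5 CPM (20.3 to 84.4) in MOL1. These intervals overlap in both libraries, and with the libraries summed the log2 ratio of OPC over MOL1 was 0.83 (0.01 to 1.63). Among mature labels Nr4a1 was at 25.6 CPM in MOL6a and 23.1 CPM in MOL6b but at 3.03 CPM in MOL2a and 2.12 CPM in MOL2b.

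Arc had another pattern again. It was at 81.5 CPM (57.7 to 112) and 93.9 CPM (56.5 to 147) in MOL1 of the TdTom+ and GFP+ libraries. OPC, which with the libraries summed ranked first or second for the 9 other members, held 1 Arc UMI in 83 cells, 0 in the TdTom+ library (a limit of 19.3 CPM, or 23.8 CPM by the exact interval) and 1 in the GFP+ library. The log2 ratio of OPC over MOL1 for Arc was -4.50 with the libraries summed, with a wide interval of -9.83 to -1.96. In the other mature labels Arc lay between 20.5 CPM (MOL4-5/6) and 32.9 CPM (MOL2b), the narrowest span of the 10 members as a ratio of highest to lowest.

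Dusp1 was at 397 CPM (342 to 458) and 336 CPM (261 to 426) in MOL1 of the TdTom+ and GFP+ libraries, and at 206 CPM (141 to 291) and 145 CPM (82.8 to 235) in OPC. MOL1 and OPC did not overlap in either library. Ier2 was at 236 CPM (194 to 284) in MOL1 and 200 CPM (136 to 284) in OPC of the TdTom+ library, which overlapped. In the GFP+ library it was at 336 CPM (261 to 426) and 154 CPM (89.7 to 247), which did not.

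**Figure D1:**
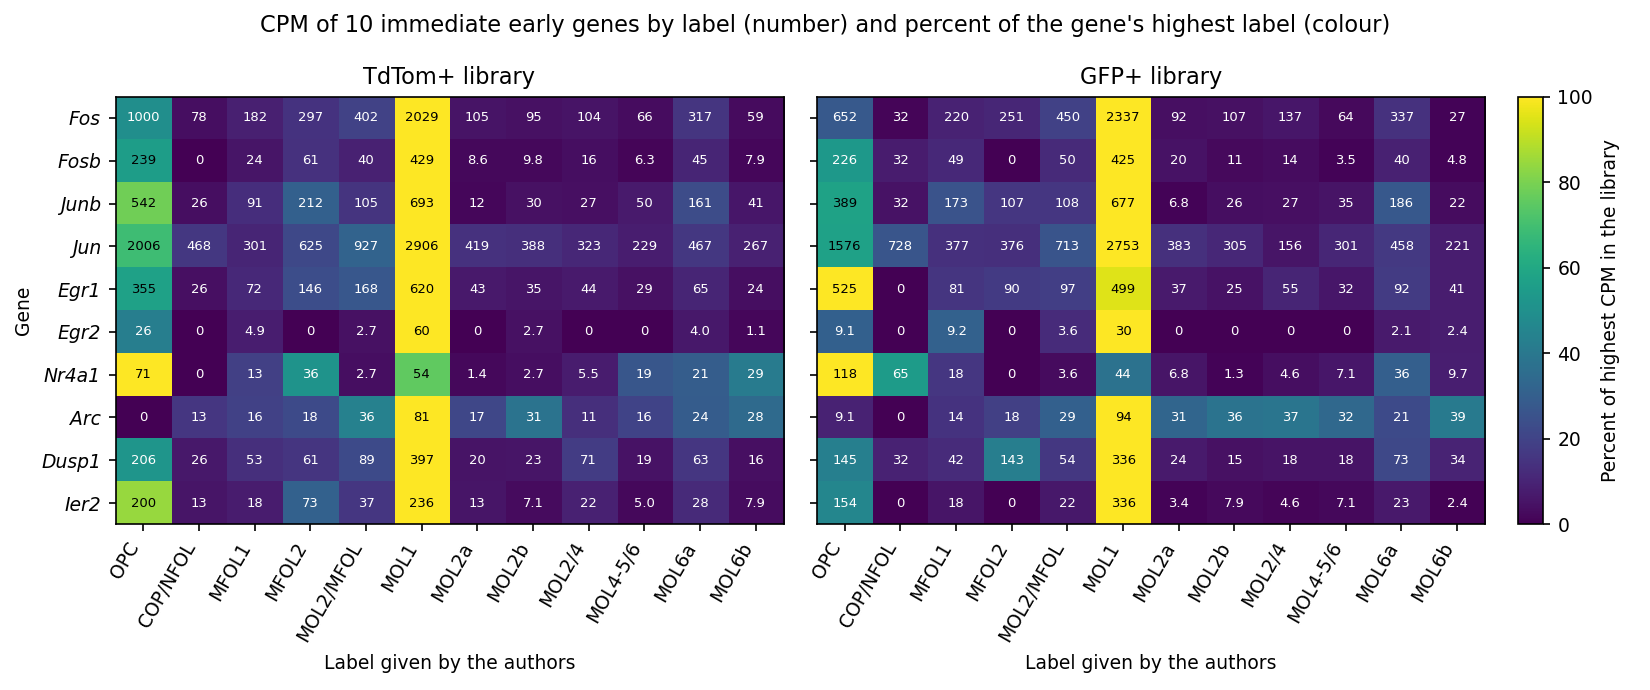
Each square gives the CPM of 1 gene (rows) in 1 label (columns) of the TdTom+ library (left) or the GFP+ library (right), and its colour the percent of that gene's highest CPM in the library. The MOL1 column is brightest for 9 genes on the left and 8 on the right, OPC is brightest for Nr4a1 in both and for Egr1 on the right, and Arc is dark in OPC.

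With the libraries summed, 9 of the 10 members were highest in MOL1, against 2.98% of the 9288 genes with at least 50 UMIs. Of the 6 members with a mean of at least 50 CPM, 6 were highest there, against 2.71% of 2955 genes. All 10 were at least 2-fold higher in MOL1 than in the other labels together, against 0.937% of genes, on a log2 scale with 1 CPM added. Their median log2 difference was 3.08, while the median over all 9288 genes was -0.09. The log2 ratio without the added CPM ran from 1.77 (1.18 to 2.31) for Nr4a1 to 4.30 (3.52 to 5.09) for Egr2, and was 3.47 (3.37 to 3.57) for Fos. In OPC, 9 members were at least 2-fold higher than in the other labels, all except Arc. This count has to be read against the 27.6% of genes that were at least 2-fold higher in OPC.

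**Figure D2:**
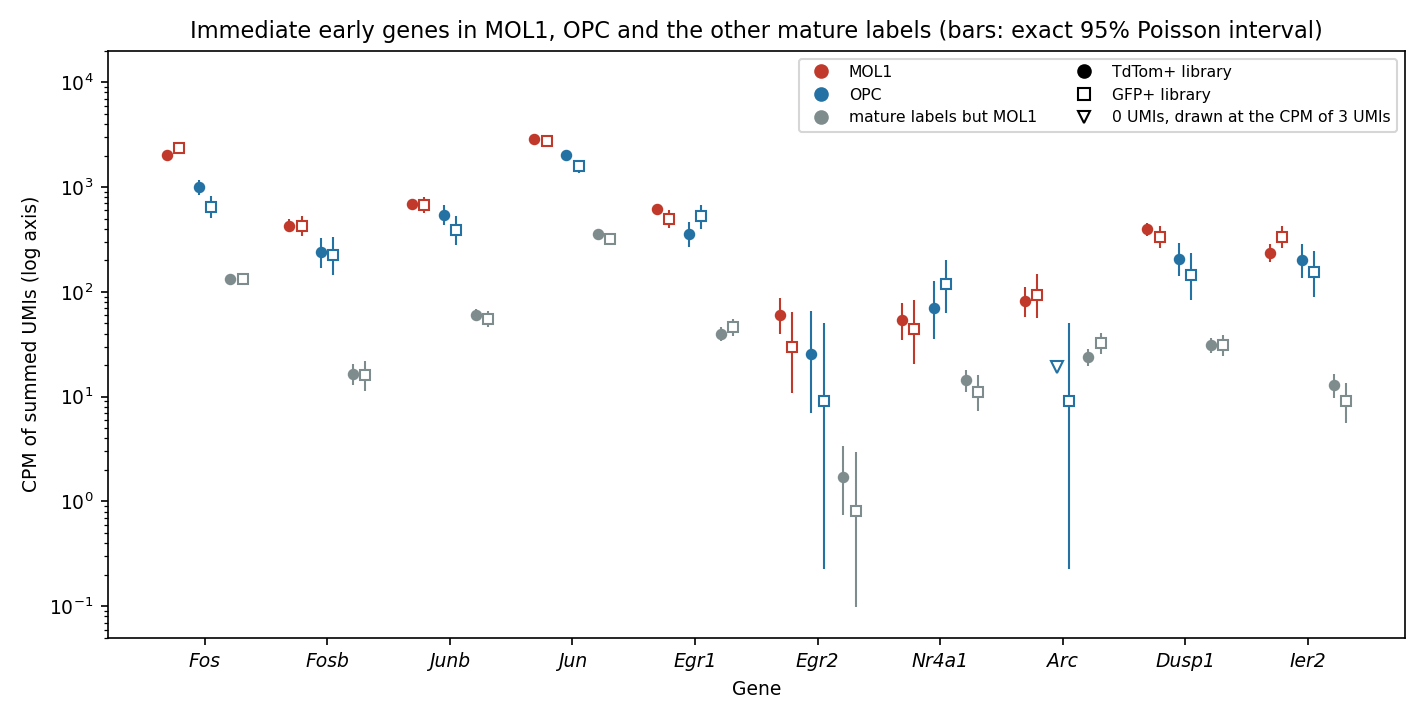
CPM on a log axis for the 10 genes in MOL1 (red), OPC (blue) and the other mature labels together (grey), with filled circles for the TdTom+ and open squares for the GFP+ library and bars for exact 95% Poisson intervals. Grey points lie below red points for all genes in both libraries, blue points lie between them for 8 genes in the TdTom+ library, and Arc in OPC of that library, with 0 UMIs, is drawn as a triangle at the CPM that 3 UMIs would give.

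Below MOL1 and OPC, MOL2/MFOL, MOL6a and MFOL2 came next for Fos, at 415 CPM (376 to 456), 323 CPM (295 to 353) and 286 CPM. Jun was at 869 CPM (813 to 928) in MOL2/MFOL and 464 CPM in MOL6a, and Junb at 169 CPM in MOL6a and 106 CPM in MOL2/MFOL. The lowest levels of Fos were in MOL6b (48.6 CPM), COP/NFOL (57.7 CPM, from 8 UMIs) and MOL4-5/6 (65.1 CPM). The intervals of MOL6a and MOL6b, which carry the same number, did not overlap for Fos (323 CPM and 48.6 CPM) or Junb (169 CPM and 34.7 CPM). MOL2a and MOL2b lay close for Fos, at 101 CPM and 99.7 CPM. For Junb their intervals did not overlap, at 10.1 CPM (4.85 to 18.6) and 28.6 CPM (21.5 to 37.4).

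Across the 24 sums of a label in a library, 8 members followed the mean of the other 9 with Pearson's r between 0.88 (Egr2) and 0.96 (Fosb). For Nr4a1 r was 0.59 and for Arc 0.22. These values describe log2(CPM + 20) over sums that share 2 libraries and differ in depth.

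Whether the members occurred in the same cells was examined next, since a high sum could come from different cells expressing different genes. Cells were thinned to 2400 UMIs so that depth was equal, which left out 150 TdTom+ and 74 GFP+ cells. At this depth, 93.0% (87.8% to 96.5%) of MOL1 cells held at least 3 members, 95.4% in the TdTom+ and 87.5% in the GFP+ library. Of the cells of other labels 12.9% (11.6% to 14.3%) did, 13.0% and 12.8% in the 2 libraries. Without thinning the shares were 96.3% and 18.3%. OPC was at 39.4% (28.03% to 51.7%), MOL2/MFOL at 30.6%, MFOL2 at 26.8%, MOL6a at 25.1% and MFOL1 at 10.4%, and the remaining labels lay between 4.56% (MOL6b) and 6.60% (MOL2/4). No label here is a cell type that should lack these genes, so MOL6b, where 8.31% of thinned cells had a Fos UMI, stands as the lowest level against which shares can be read. Its median depth was 2909.5 UMIs per cell before thinning, against 3766 in MOL1.

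Counted without thinning, 804 of the 2853 cells held no member and 244 held at least 5. Of those 244 cells, 115 were MOL1, 34 MOL6a, 26 MOL2/MFOL, 23 OPC and 20 MFOL1. No MOL1 cell lacked every member, and 2 MOL1 cells held all 10. MFOL1 had 80 of 274 cells at 0 members and 10 at 7 to 9, OPC had 13 of 83 cells at 0 and 12 at 7 or 8, and the highest Fos and Junb counts of any cell (40 and 30 UMIs) were in MFOL1 cells. The 20 MFOL1 cells with at least 5 members had 0 UMIs of OPC markers and 25677 CPM of the 5 myelin genes, against 22402 CPM in the MFOL1 cells with 0 to 2 members. Their median depth was 5342 UMIs against 3526, and after thinning 14 of 259 MFOL1 cells (5.41%, 2.99% to 8.90%) still held at least 5.

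OPC were spread widely, with 44 cells at 0 to 2 members, 16 at 3 or 4 and 23 at 5 or more. After thinning, 15 of 71 OPC (21.1%, 12.3% to 32.4%) held at least 5. Without thinning, the lowest and highest classes were both OPC by their markers, at 11100.5 CPM and 10507 CPM of the 6 genes summed. Their median depths were 2754 and 3389 UMIs. In MFOL2, 2 of the 7 cells with at least 5 members held Pdgfra, and these 2 were the only Pdgfra+ cells among 66. A further TdTom+ cell of these 7 held 100 of the 111 microglial UMIs in the matrix and 6 of the 10 members.

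**Figure D3:**
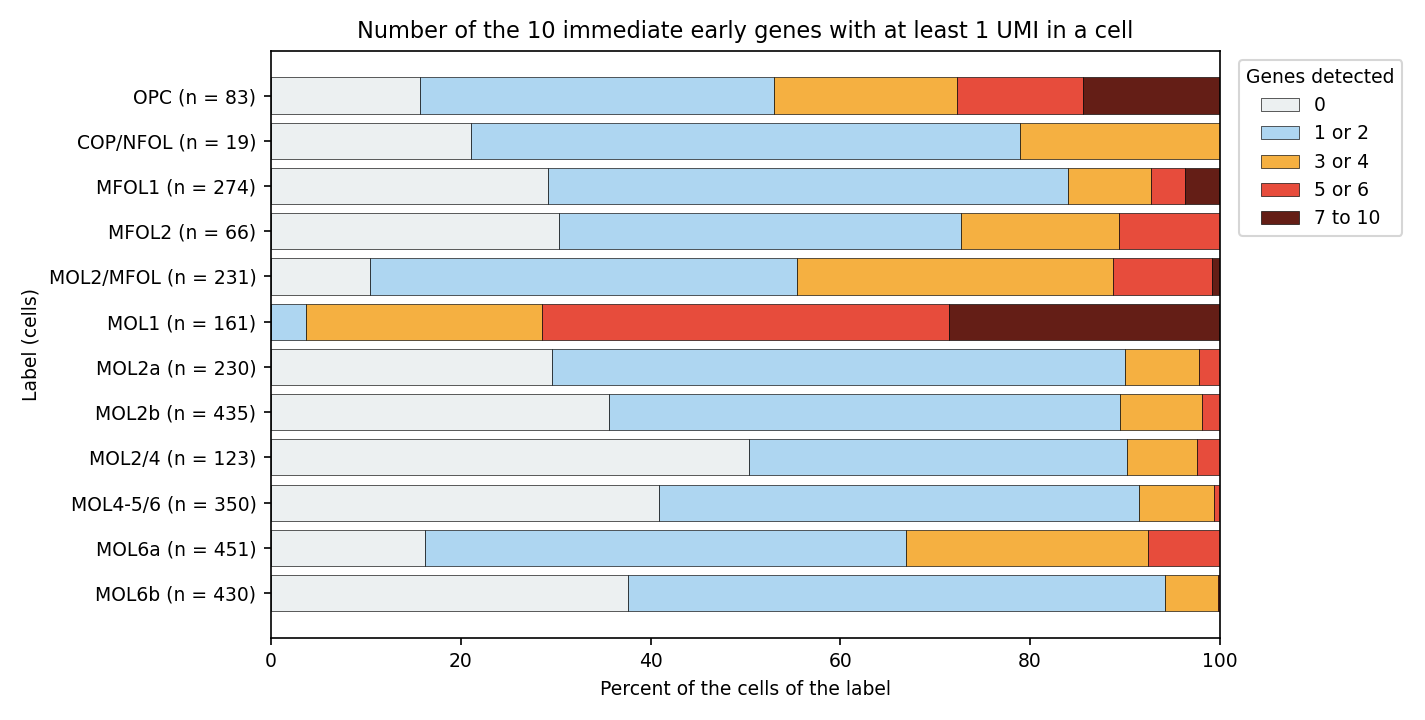
Bars give, for each label (rows, with its number of cells), the percent of cells in which 0, 1 or 2, 3 or 4, 5 or 6, or 7 to 10 of the 10 genes had at least 1 UMI, without thinning. MOL1 has no cell at 0, the darkest segment is seen mainly in MOL1 and OPC and to a small extent in MFOL1 and MOL2/MFOL, and MOL2/4 and MOL4-5/6 have the widest segments at 0.

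Pairs of members were then compared with the product of their shares, which is the number of cells with both that unlinked genes would give. Pairs whose product was under 5 cells were left out. Over all cells the median ratio was 2.43 over 38 pairs, and 36 lay above 1. It was 2.09 over 32 pairs outside MOL1, 1.60 over 14 pairs inside OPC and 1.07 over 42 pairs inside MOL1. Fos was found in 89.8% of thinned MOL1 cells and Jun in 94.9%, so a ratio cannot go far above 1 for this pair, while 5 members, from Dusp1 (47.8%) to Egr2 (9.55%), were in fewer than 50% of these cells.

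Outside MOL1, Egr1 and Ier2 had the highest ratio, at 4.23. Ier2 was found in 15.9% (11.8% to 20.8%) of cells with Egr1 and in 2.27% (1.69% to 2.98%) of cells without it. Fosb and Junb followed at 3.93, with Junb in 47.4% (38.1% to 56.9%) of cells with Fosb and 10.3% of cells without. Fos and Fosb were at 3.44. Pairs with Jun lay lower, at a median of 1.51, and Jun was the most widely found member. In OPC, Junb was found in 81.5% (61.9% to 93.7%) of cells with Fos and 11.4% (3.79% to 24.6%) of cells without.

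For Arc the ratios were lower. Its 7 pairs outside MOL1 had a median ratio of 0.95 and ran from 0.73 with Dusp1 to 1.15 with Ier2. Without thinning the pair with Dusp1 was at 1.25 and that with Fosb at 1.65, and inside MOL1 the 7 thinned Arc pairs had a median of 1.14, up to 1.46 with Dusp1. Arc was found in 6.11% (4.10% to 8.71%) of cells with Fos and 5.51% (4.56% to 6.60%) of cells without, which overlap. Some of the ratio over pooled labels comes from labels that differ in level, so it was also computed within each of the 11 other labels and summed. The median was then 1.70 over 33 pairs, 1.90 over the 27 pairs without Arc, of which 27 lay above 1, and 0.96 over 6 pairs with Arc, from 0.76 to 1.21.

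**Figure D4:**
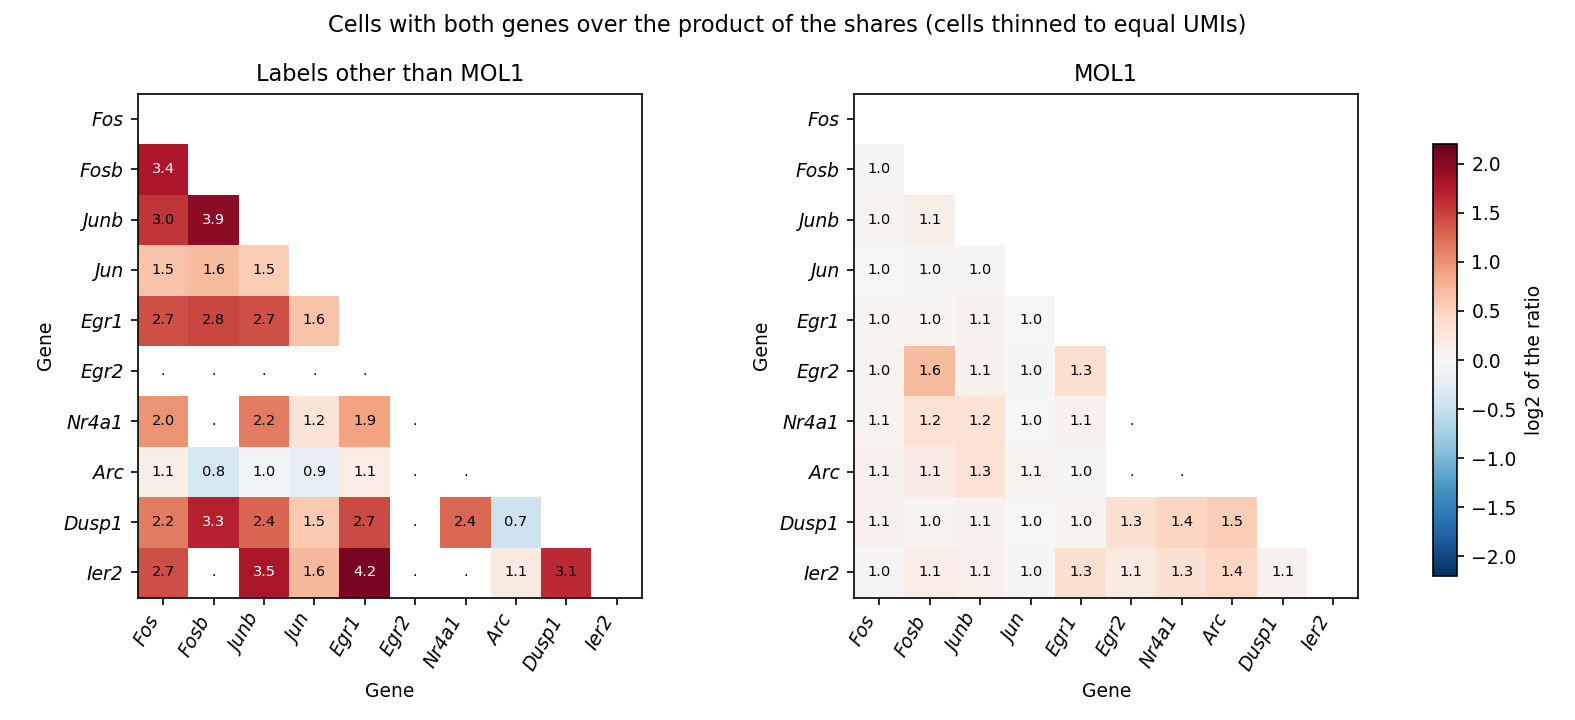
Each square gives, for 2 of the 10 genes, the number of thinned cells with both divided by the number that the product of their shares gives, outside MOL1 (left) and in MOL1 (right), coloured by its log2. Dots are pairs with a product under 5 cells. Most squares on the left lie well above 1, the Arc row lies near 1, and most squares on the right lie between 1.0 and 1.3.

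Dorsally and ventrally derived cells were compared to see whether origin went with another level of these genes. With 1 library each, origin and library preparation cannot be told apart. Over all cells the median log2 ratio of TdTom+ over GFP+ was 0.07 for the members and 0.01 over 9288 genes. Egr2 was the 1 member beyond 0.5 in either direction, against 5.15% of genes, at 6.45 CPM and 3.91 CPM from 46 and 14 UMIs, and its interval of -0.16 to 1.70 held 0. Fos was at 313 CPM and 309 CPM (log2 ratio 0.02, -0.09 to 0.12), and Fosb at 52.5 CPM and 52.2 CPM. For Jun the interval lay above 0, at 621 CPM and 539 CPM (0.21, 0.13 to 0.28), and likewise for Dusp1, at 68.0 CPM and 56.6 CPM (0.26, 0.03 to 0.51). These were 2 of 10 members, and the intervals leave out differences between sorts and preparations.

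Inside MOL1, Fos was lower in the TdTom+ library (log2 ratio -0.20, -0.37 to -0.04), as was Ier2 (-0.51, -0.96 to -0.05). Outside MOL1 the ratio of Ier2 lay on the other side of 0, with 22.1 CPM and 15.7 CPM in TdTom+ and GFP+ cells (0.49, 0.03 to 0.98), and that of Jun was above 0 too (0.18, 0.09 to 0.28). In OPC the interval excluded 0 for 3 of the 10 members. Fos (0.62, 0.20 to 1.04) and Jun (0.35, 0.08 to 0.62) were higher in the TdTom+ library, and Egr1 was lower (-0.57, -1.13 to -0.01). Over the 40 ratios of all cells, MOL1, other labels and OPC, 9 intervals excluded 0, and these were not adjusted for their number. The OPC of the 2 libraries were 48 and 35 cells.

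**Figure D5:**
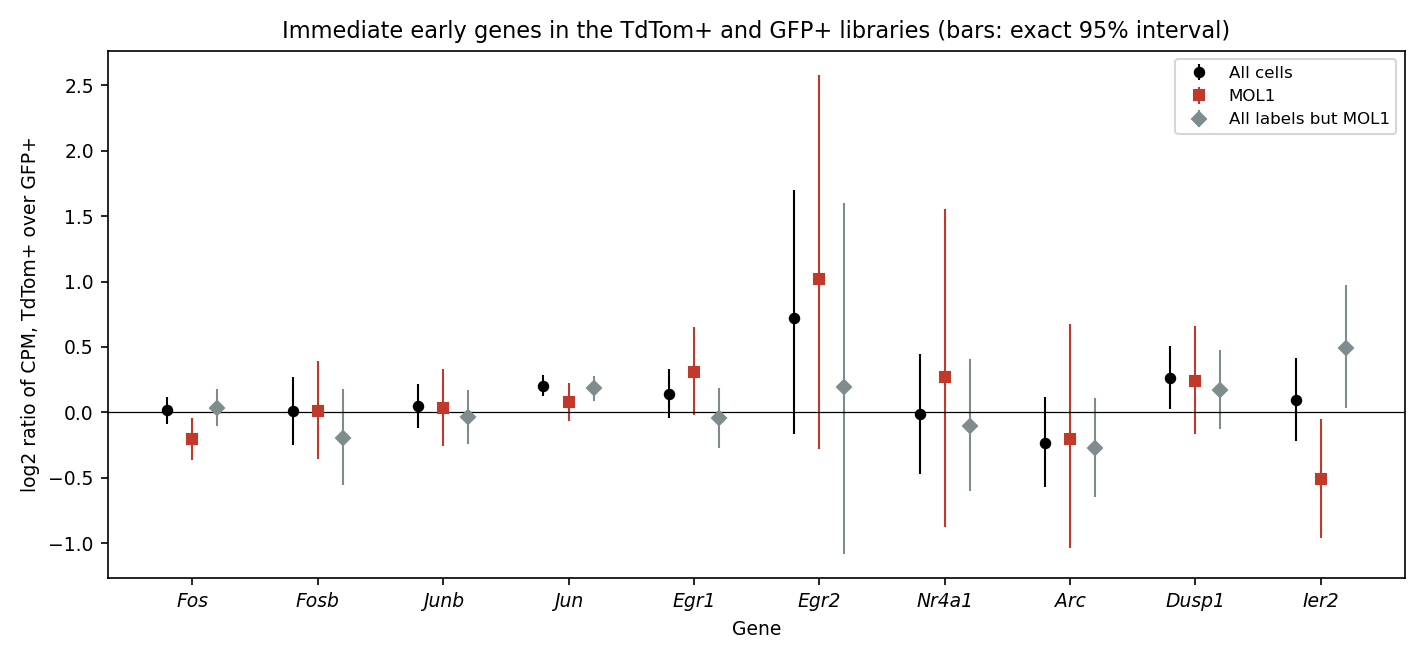
Log2 ratios of CPM, TdTom+ over GFP+, for the 10 genes over all cells (black), in MOL1 (red) and in the other labels (grey), with exact 95% intervals as bars. Points for 9 genes over all cells lie between -0.23 and 0.26, and those of Egr2 have the widest intervals.

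Other immediate early regulators gave a mixed picture. Of a list of 26, 19 were measured, and 6 were at least 2-fold higher in MOL1 and 1 at least 2-fold lower, with a median log2 difference of 0.85. Of the 10 with at least 50 UMIs, 5 were higher and 0 lower (median 1.06), where 0.937% of all such genes were higher and 7.19% lower. Klf4, a zinc finger transcription factor, was at 109 CPM in MOL1, 7.17 CPM in other labels and 7.53 CPM in OPC (3.75 with 1 CPM added). Btg2, an antiproliferative gene, was at 209 CPM and 26.2 CPM (2.95), Klf10 at 41.9 CPM and 9.95 CPM (1.97), and Klf2 at 12.0 CPM and 2.39 CPM (1.94) from 8 and 24 UMIs. The lowest was Myc, with 0 UMIs in MOL1 and 11 elsewhere. Among family members, Jund was at 2538 CPM in MOL1 and 1384 CPM elsewhere (0.87), Ier5 at 10.47 CPM and 4.98 CPM, and Ier3 at 5.98 CPM and 2.99 CPM. Fosl2 and Nr4a2 had 5 and 11 UMIs in all, and Fosl1, Egr3, Egr4, Nr4a3 and Dusp4 were not analysed here.

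Of 34 listed induced signalling and feedback genes 29 were measured, 7 were at least 2-fold higher in MOL1 and 5 at least 2-fold lower, with a median of 0.29. The 5 lower ones were Dusp6, Spry4, Zfp36l1, Trib1 and Cyr61. Each was higher in OPC (75.3 to 637 CPM) than in the labels other than MOL1 together, OPC included (2.39 to 19.6 CPM). Of the 21 with at least 50 UMIs, 6 were higher and 1 lower (median 0.33), against 0.937% and 7.19% of all such genes. Zfp36, whose protein destabilizes AU-rich mRNAs, was at 97.2 CPM in MOL1, 15.3 CPM in other labels (2.59) and 7.53 CPM in OPC. Socs3, an inhibitor of cytokine signalling, was at 35.9 CPM and 6.17 CPM (2.36) but 136 CPM in OPC. Gadd45b was at 32.9 CPM and 6.17 CPM (2.24), and Dusp14 at 5.98 CPM and 1.89 CPM (1.27) from 4 and 19 UMIs. The lowest was Cyr61, with 0 UMIs in MOL1 and 166 CPM in OPC. Dusp6, a phosphatase of ERK, also had 0 UMIs in MOL1, where 3 UMIs would make 4.49 CPM, and 124 CPM in OPC. Its level in the labels other than MOL1 together, OPC included, was 3.78 CPM. The related Dusp1 was high in both MOL1 and OPC.

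None of the 20 measured upstream factors and kinases was at least 2-fold higher in MOL1, and 2 were at least 2-fold lower, with a median of -0.18. Of the 19 with at least 50 UMIs, 0 were higher and 1 lower (median -0.07). Over all such genes 0.937% were higher and 7.19% lower, so these counts are close to the shares over all genes. Map2k1, a kinase that activates ERK, was highest at 98.7 CPM and 50.1 CPM (0.97), followed by Elk4 (0.63) and Atf1 (0.52), and the lowest was Rps6ka3 with 0 UMIs in MOL1 and 62 elsewhere. Srf, encoding serum response factor, was at 7.48 CPM and 11.3 CPM.

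Of 14 measured heat shock genes, 3 were at least 2-fold higher there, namely Dnajb1 (410 CPM and 53.8 CPM, 2.91), Hspa1a (350 CPM and 109 CPM, 1.68) and Hspa1b (34.4 CPM and 12.3 CPM, 1.41), followed by Bag3 (0.84), and the lowest was Hspb1 with 5 UMIs in all. The median over the list was 0.56. Of the 13 with at least 50 UMIs, 3 were higher and 0 lower (median 0.58), against 0.937% and 7.19% of all such genes. The sum of the 14, of which Hsp90ab1 and Hsp90aa1 made up the largest parts, was 5793 CPM in MOL1, 3648 CPM in labels other than MOL1 and OPC, and 2637 CPM in OPC. In OPC the sum was 2140 CPM in cells with 0 to 2 members and 3613 CPM in cells with 5 or more, and in mature labels other than MOL1 it was 3318 CPM and 5487 CPM. The median share of mitochondrial UMIs was 1.46% and 1.21% in these mature classes. The classes differ in their labels, since 34 of the 53 mature cells with 5 or more members were MOL6a. Within MOL6a the heat shock sums were 4883 CPM and 6187 CPM, and the mitochondrial medians 1.36% and 1.17%. In MOL2/4 the sums were 4478 CPM and 3564 CPM, the latter from 3 cells. In the remaining mature labels the class with 5 or more members had the higher sum. These classes were small too, with 5 (MOL2a), 8 (MOL2b), 2 (MOL4-5/6) and 1 (MOL6b) cells. All cells were enzymatically dissociated and sorted before lysis, so levels in the tissue and changes during preparation cannot be told apart.

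The 5879 genes with at least 200 UMIs were ranked by how closely their profile over the 24 sums followed the mean of the members. Gm26802 was first (r = 0.96), followed by Btg2 (0.90), Dnajb1 (0.79), Adamts1 (0.71), Actr8 (0.69), Spg21 (0.69), Gm26825 (0.69), Slc3a2 (0.68), Srsf5 (0.66) and Ubb (0.65). Gm26802 was at 284 CPM in MOL1, 128 CPM in OPC and 11.2 CPM in the rest. Dnajb1 was at 410 CPM, 79.1 CPM and 53.1 CPM, so that it was high in MOL1 and near the rest in OPC. Without the MOL1 sums Gm26802 kept rank 1 (r = 0.91), while Btg2 came to rank 9 and Dnajb1 to rank 809. These correlations describe sums of 2 libraries, and Ubb, the polyubiquitin gene, differed by 1.02 on the log2 scale between MOL1 and other labels.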

How the data were processed

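Cells of the corpus callosum were dissociated, sorted by FACS and run on 10x Genomics 3′ version 2 chemistry, with 3000 cells loaded per sample. The authors aligned reads with STAR and kept cells with 200 to 3000 genes and under 5% mitochondrial UMIs, although 38 deposited cells (11 of them COP/NFOL) have more than 3000 genes. The submitters' processing notes name Cell Ranger 2.1.1 and mm10. The deposited matrix is a signal, each gene's share of the cell's UMIs, and the deposited table of cells gave each cell's total count, its detected genes, its library and 1 of 12 labels. Its 35 other columns were not used. Dividing by each cell's lowest value above 0 gave whole UMIs for 100% of values (tolerance 0.01). Their sums, which were used throughout, equalled the deposited total in 0 cells and lay between 95.2% and 99.9% of it (median 99.5%, 98.6% summed over OPC). The members and all gene lists were chosen with earlier results of these data known. Genes named are the members, the 10 genes most like them among genes with at least 200 UMIs, the 4 highest and the lowest of each list, and listed family genes. Beyond this rule, Srf was named after its values were seen. Some genes that the rule names are not reported here.

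Exact intervals were Poisson for CPM of summed UMIs, Clopper-Pearson for shares and conditional binomial for ratios. No doublet caller is named, and doublets were not removed here. Intervals and thinning (seed 1) were tested on simulated data. The tools were scipy 1.17.1 and numpy 2.4.6 under Python 3.11.15, and edgeR 4.0.16 (TMM factors only) under R 4.3.3.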

Additional observations from a re-analysis of the deposited data

How the results depend on the processing

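No paired analysis was possible because each origin had a single library. The number of members highest in MOL1 lay between 8 (GFP+ library alone, where Egr1 was also highest in OPC) and 10 (without labels of under 100 cells) in 7 alternatives. The median log2 difference of MOL1 was 2.87 with a pseudocount of 10 CPM, 3.67 against mature labels alone and 2.68 with the 11 other labels weighted equally, and between 3.00 and 3.25 in 7 other alternatives. The share of MOL1 cells with at least 3 members was 69.6% after thinning to 1000 UMIs, 87.5% in the GFP+ library alone and 81.4% when a member needed 2 UMIs. For other labels it was 18.3% without thinning, 5.09% at 1000 UMIs and 6.28% with 2 UMIs. The median pair ratio was 4.47 when a member needed 2 UMIs and between 1.95 and 3.29 otherwise. The median log2 ratio of TdTom+ over GFP+ became -0.0014 outside MOL1 and was between 0.05 and 0.14 otherwise. Of the 10 genes most like the members, 5 remained with Spearman's rho, 5 with 12 label sums, 3 without MOL1 sums and 4 without COP/NFOL sums. Leaving out OPC was chosen after seeing the data. Few UMIs limit Egr2 (60 in all), Nr4a1 and Arc, and 19 cells limit COP/NFOL.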

Other observations

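The gene whose profile was closest to the members, Gm26802, is annotated as a lincRNA at chr7:19298260-19300770 on the − strand (GENCODE M21, GRCm38). Fosb lies on the same strand at chr7:19302696-19310051, so that Gm26802 begins 1925 bases beyond the annotated 3′ end of Fosb. Gm26802 was found in 104 of 280 cells with Fosb (37.1%, 31.5% to 43.1%) and in 42 of 2573 cells without Fosb (1.63%, 1.18% to 2.2%). Outside MOL1 the shares were 24.1% (18.0% to 31.2%) and 1.31% (0.904% to 1.84%), and in OPC they were 45.5% (24.4% to 67.8%) and 3.28% (0.400% to 11.3%). Whether these UMIs come from a separate transcript or from longer Fosb transcripts was not tested.

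Several genes of the lists were high in OPC and near 0 in MOL1, unlike the members. Zfp36l1, which encodes a relative of Zfp36, was at 637 CPM in OPC and 4.49 CPM in MOL1, Spry4 at 90.4 CPM and 0 UMIs, and Trib1 at 75.3 CPM and 0 UMIs. In the labels other than MOL1 together, OPC included, they were at 19.6 CPM, 2.59 CPM and 2.39 CPM. Because that comparison includes OPC, it does not show whether their low level was particular to MOL1. Of all genes with at least 50 UMIs, 27.6% were at least 2-fold higher in OPC. These genes were picked after their values were seen.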
